A study of Mus musculus with 6 samples.

Results

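Notch signalling genes were examined in growth plate cartilage of mouse embryos with and without expression of a mutant Idh1. The genes were 4 receptors (Notch1, Notch2, Notch3 and Notch4), 3 ligands (Jag1, Dll1 and Dll4) and 3 target genes (Hes1, Hey1 and Heyl). They were chosen by gene name, and all 10 were found among the 46078 genes listed in the count tables. Bulk RNA sequencing compared 3 control libraries, of genotype Idh1 LSL/+, with 3 Idh1 mutant libraries, of genotype Col2a1-Cre; Idh1 LSL/+, all taken at E18.5 from the distal femur and proximal tibia. Both groups therefore carried 1 lox-stop-lox Idh1 allele, and the Cre transgene was present only in the mutants, so that an effect of Cre and an effect of mutant Idh1 cannot be told apart. Cre was driven by Col2a1 regulatory elements, which are active in chondrocytes, so that vessel, muscle and tendon cells of the same piece are not the intended site of recombination. Neither the labels nor the methods state whether each library was made from a single animal, and p-values here measure the spread between these libraries.

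Notch receptors are membrane proteins that are cut after they bind a ligand of the Jagged or Delta-like family on a neighbouring cell. The freed intracellular part enters the nucleus, joins the DNA-binding protein Rbpj and a Mastermind coactivator, and switches on Hes and Hey genes, which encode transcriptional repressors. In the developing skeleton the pathway is known to restrain early cartilage differentiation and to take part in the maturation of hypertrophic chondrocytes, and in blood vessels it guides sprouting and the coating of vessels by mural cells.

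Counted reads numbered between 23445687 and 30415773 per library, and 3 counts corresponded to 0.0979 to 0.127 CPM, the usual depth-scaled count, taken here relative to the total of the tested genes with edgeR's TMM factors. Such floors cover counting error only. Idh1, the targeted gene, was measured at 37.3, 39.2 and 65.4 CPM among control libraries and at 47.6, 47.7 and 56.3 CPM among mutant libraries, and its total count does not distinguish the mutant allele. Mutant 3 differed from the other libraries in having 0 counts over 4 Y-linked genes (3871 to 5449 in the others) and 26356 counts of Xist (at most 13 in the others). By these counts mutant 3 was female and the other libraries male. Sex was therefore not balanced between the groups, and its part in the differences was not tested. The summed level of 10 chondrocyte markers was 4018 to 8135 CPM among controls and 6367 to 8938 CPM among mutants, so that the labelled cell type was present. The dissected pieces also held other tissues, with 13989 to 21792 CPM over 10 skeletal muscle markers, 1983 to 2317 CPM over 10 mural cell markers and 33559 to 48001 CPM over 7 osteoblast markers across the 6 libraries. In each of these lists, as in the chondrocyte list, the sums of the groups overlapped. Control 3 had the lowest chondrocyte sum of the 6 libraries, 4018 CPM, where controls 1 and 2 had 6308 and 8135 CPM. It also had the highest muscle and osteoblast sums, 21792 and 48001 CPM. All 7 osteoblast markers had a log2 fold change above 0, where 50.7% of all genes tested were below, although the sums overlapped. The osteoblast sum thus does not stand for each of its markers. A bulk level cannot tell fewer cells of a type from less RNA per cell.

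The promoters of Notch2, Notch3 and Notch4 are shown first. Notch3 and Notch2 had the highest levels among the receptors, and Notch4 was the only receptor whose control and mutant libraries did not overlap. RefSeq promoter windows on GRCm38.p6 (250 bases before the start and 50 bases from it on) were found for 7 of the 10 genes, with no entry for Hes1, Hey1 and Heyl. Each sequence is given 5′ to 3′ on the strand of its gene, up to the first base of the gene in either annotation, and capitals mark the GC box GGGCGG or its reverse complement CCGCCC.
Notch2, chr3:98013288-98013526, forward strand: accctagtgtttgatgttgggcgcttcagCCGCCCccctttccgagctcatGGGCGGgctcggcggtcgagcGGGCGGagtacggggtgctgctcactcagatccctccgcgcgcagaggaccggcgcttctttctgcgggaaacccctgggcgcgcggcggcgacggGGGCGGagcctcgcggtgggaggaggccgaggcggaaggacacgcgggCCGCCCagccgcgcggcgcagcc
Notch3, chr17:32166891-32167140, reverse strand: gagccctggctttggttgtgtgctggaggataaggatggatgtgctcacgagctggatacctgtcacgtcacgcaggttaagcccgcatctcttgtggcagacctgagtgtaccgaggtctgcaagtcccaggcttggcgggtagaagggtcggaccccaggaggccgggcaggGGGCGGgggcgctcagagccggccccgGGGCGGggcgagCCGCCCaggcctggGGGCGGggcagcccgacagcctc
Notch4, chr17:34564045-34564267, forward strand: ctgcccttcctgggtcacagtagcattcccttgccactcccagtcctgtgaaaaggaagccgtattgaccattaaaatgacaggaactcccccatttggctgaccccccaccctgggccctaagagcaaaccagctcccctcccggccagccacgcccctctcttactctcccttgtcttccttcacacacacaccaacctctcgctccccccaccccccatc
The whole 300-base window was 73.0% G and C in Notch2, 70.0% in Notch3 and 58.3% in Notch4, against a median of 52.7% over all 32851 promoter windows. GC boxes, searched on both strands, were found in the windows of Notch1, Notch2, Notch3 and Dll4 and in 35.7% of all windows. The Notch1 window (chr2:26503773-26504072, reverse strand) lies inside the gene as counted, which spans 26457903 to 26516663, so none of it is printed. The Notch4 window held no GC box and 1 AP-1 motif (TGACTCA, in 5.20% of all windows), which began 4 bases before the RefSeq start and therefore lies past the printed stretch. The Rbpj motif GTGGGAA or its reverse complement TTCCCAC, present in 6.38% of all windows, was not found in the windows of the 7 genes. These matches describe letters in the windows and say nothing of binding.

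All 10 genes were expressed and passed the expression filter. To compare genes with each other, levels were divided by exon length (CPM per kb). Notch3 had the highest length-scaled level, with a mean of 19.9 CPM per kb over the 6 libraries, followed by Notch2 (15.9), Hes1 (14.9), Jag1 (10.5) and Heyl (8.44). Notch1 (5.73), Notch4 (5.71), Hey1 (5.66) and Dll4 (5.31) lay close together below them, and Dll1 had the lowest level, at 1.75 CPM per kb. The ranges over the 6 libraries overlapped between each pair of neighbours in this order except between Heyl and Notch1 and between Dll4 and Dll1, while genes of 1 library can also be compared within it. Notch3 was above Notch2 in 6 of 6 libraries and Hes1 above Jag1 in 6 of 6, Jag1 was above Heyl in 5, and Notch2 was above Hes1 in 4. From Notch1 to Dll4 each gene was above the next in 3 or 4 of 6 libraries, so that the order of these 4 was not resolved. Differences in mappability between genes were not corrected. Exon bases shared with other genes, whose reads were not counted, stayed in the length, such as 867 of 4219 bases in Dll1. This can make the length-scaled levels and shares of such genes too low.

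**Figure D1:**
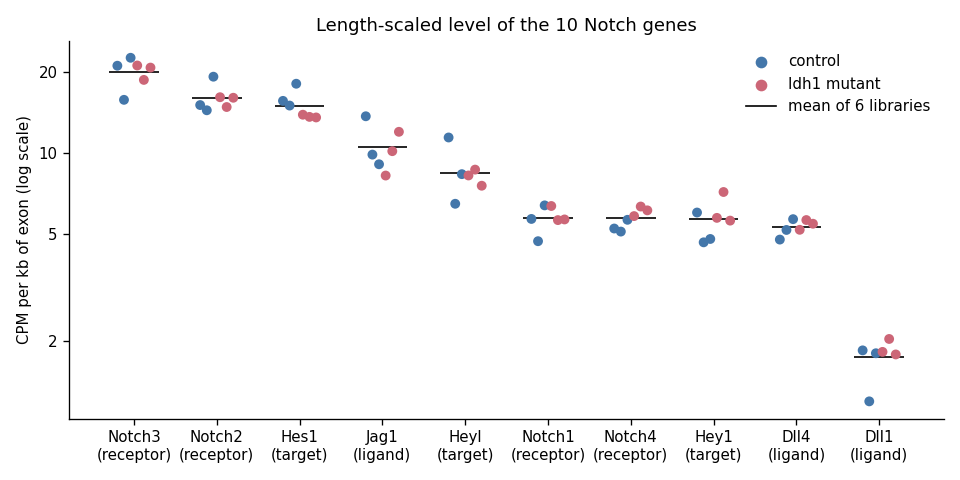
Length-scaled level (CPM per kb of exon, log axis) of each Notch gene in 3 control (blue) and 3 Idh1 mutant (red) libraries, ordered by the mean over the 6 libraries (line). Notch3 is highest at a mean of 19.9 and Dll1 lowest at 1.75 CPM per kb, and blue and red points are mixed in most genes.

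Mutants were compared with controls by edgeR's quasi-likelihood test over 16813 genes, with Benjamini-Hochberg adjustment and a threshold of 0.05. Of the 10 Notch genes, 0 passed this threshold, and DESeq2 and limma-voom also called 0. Over all genes tested, 0.19% passed it, 0.0535% as higher and 0.137% as lower in the mutants. DESeq2 called 1.17% of its genes, DESeq2 with the replicate number as a block 0.632%, and edgeR with that block 0.0178%, and the members called were 0 in each. At an unadjusted p under 0.05 there were 2 of the 10, Hes1 and Notch4, against 8.64% of all genes tested. Notch4 was higher, as were 3.71% of all genes at this p, and Hes1 was lower, as were 4.93%. These were also the only members whose control and mutant libraries did not overlap, as was the case for 14.4% of all genes tested (6.85% higher and 7.58% lower). The same 2 genes were separated with upper-quartile factors, DESeq2 size factors and library totals alone, scalings chosen after the data were seen. The log2 fold changes lay between -0.25 and 0.26 with a median of 0.04, beside a median of 0.00 (-0.0026) over all genes tested, and 4 of the 10 were below 0, as were 50.7% of all genes tested.

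**Figure D2:**
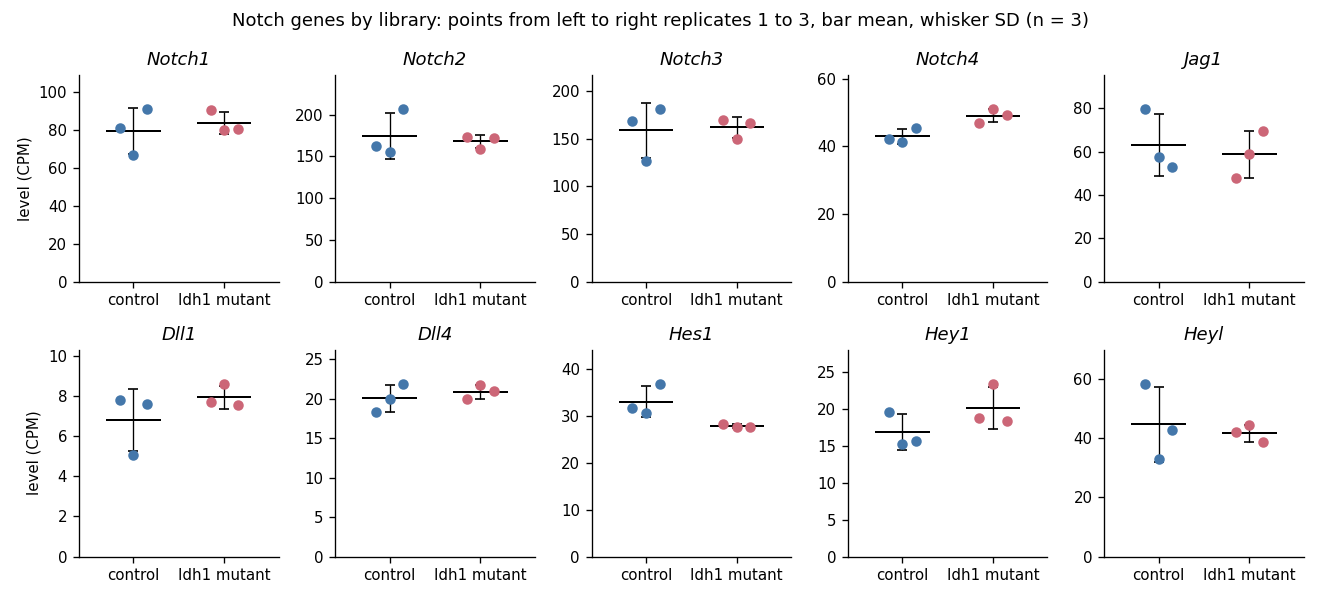
Level of each Notch gene (CPM, axis from 0) in the control (blue, replicates 1 to 3 from left to right) and Idh1 mutant (red) libraries, with the mean and SD of each group (n = 3). Mutant points lie above the control points only in Notch4 (47.0 to 50.9 against 41.1 to 45.5 CPM) and below them only in Hes1 (27.5 to 28.2 against 30.5 to 36.7 CPM), and neither passes the adjusted threshold.

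Among the receptors, Notch3 (ENSMUSG00000038146, chromosome 17 from 32120820 to 32166880, reverse strand of GRCm38), which is best known from mural cells of vessels, showed 169, 126 and 181 CPM across control libraries and 169, 150 and 166 CPM across mutant libraries. The mutants lay within the range of the controls. By edgeR, the log2 difference was 0.03 ± 0.13 (standard error) at an adjusted p of 0.976, with a 95% interval from 0.837 to 1.24 times the control level.
Notch2 (ENSMUSG00000027878, chromosome 3 from 98013527 to 98150361, forward strand), a broadly expressed receptor, had control levels of 162, 155 and 206 CPM (replicates 1 to 3) and mutant levels of 173, 159 and 172 CPM. Here too each mutant lay between the lowest and the highest control. Mutants differed from controls by -0.05 on the log2 scale (± 0.11, standard error, adjusted p = 0.950, edgeR), and the 95% interval reached from 0.811 to 1.15 times the control level.
Notch1 (ENSMUSG00000026923, chromosome 2 from 26457903 to 26516663, reverse strand), the receptor most studied in cell fate decisions, was measured at 80.9, 66.9 and 90.8 CPM among control libraries and at 90.4, 80.1 and 80.6 CPM among mutant libraries. Again the mutants fell inside the control range. The edgeR fit estimated a log2 fold change of 0.07 (adjusted p = 0.917, standard error 0.11), with a 95% interval from 0.883 to 1.25 times the control level. These 3 receptors were all lowest in control 2 and highest in control 3.

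Notch4 (ENSMUSG00000015468, chromosome 17 from 34564268 to 34588503, forward strand), known as a receptor of endothelial cells, had control levels of 42.2, 41.1 and 45.5 CPM (43.0 ± 2.26, SD, n = 3) and mutant levels of 47.0, 50.9 and 49.3 CPM (49.1 ± 2.00, SD, n = 3). Each mutant library was above each control library. Fitted by edgeR, this was a log2 fold change of 0.19 ± 0.08 (standard error), or 1.14 times the control level with a 95% interval from 1.01 to 1.29. Its p was 0.0364 before and 0.536 after adjustment (edgeR), so that it did not pass the threshold. With mutant 3 left out the log2 fold change was also 0.19 (adjusted p = 0.715, edgeR).
Endothelial markers did not share 1 direction. The summed level of 12 of them came to 1157, 1166 and 1177 CPM for controls and to 1185, 1219 and 1302 CPM for mutants, so that the sums of the groups did not overlap. Of the 12, 8 had a log2 fold change above 0 and 4 below. In 4, Kdr, Emcn, Egfl7 and Esam, all 3 mutants lay above all controls (6.85% of all genes tested), with log2 fold changes of 0.25, 0.30, 0.27 and 0.22. At an unadjusted p under 0.05 (edgeR) there were 4 higher and 0 lower, beside 3.71% and 4.93% of all genes tested. At the adjusted threshold 0 passed. The endothelial list was chosen with earlier results of these data known. Pecam1 and Cdh5, of the same list, had log2 fold changes of 0.06 and -0.03, and Erg and Cldn5 had -0.26 and -0.27 with overlapping groups. Divided by the endothelial sum of the same library, Notch4 had log2 ratios of -4.78, -4.82 and -4.69 for controls and -4.66, -4.58 and -4.72 for mutants. The groups then overlapped, with a difference of 0.11 (exact permutation test, two-sided p = 0.2, where 3 libraries against 3 allow no p below 0.1).

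As shares of the 4 receptors' length-scaled RNA, Notch3 made up 39.4 to 44.8% among controls and 41.1 to 42.7% among mutants, and Notch2 32.0 to 36.0% and 32.6 to 33.0%. Notch1 made up 11.8 to 12.1% among controls and 11.7 to 12.9% among mutants, and Notch4 10.5 to 12.8% and 11.8 to 13.9%. The largest difference of group means among these shares was -1.84 percentage points in Notch2 (exact permutation test, two-sided p = 0.4), and that in Notch4 was 1.304 points (p = 0.3, the same exact test). All 4 shares overlapped between the groups.

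**Figure D3:**
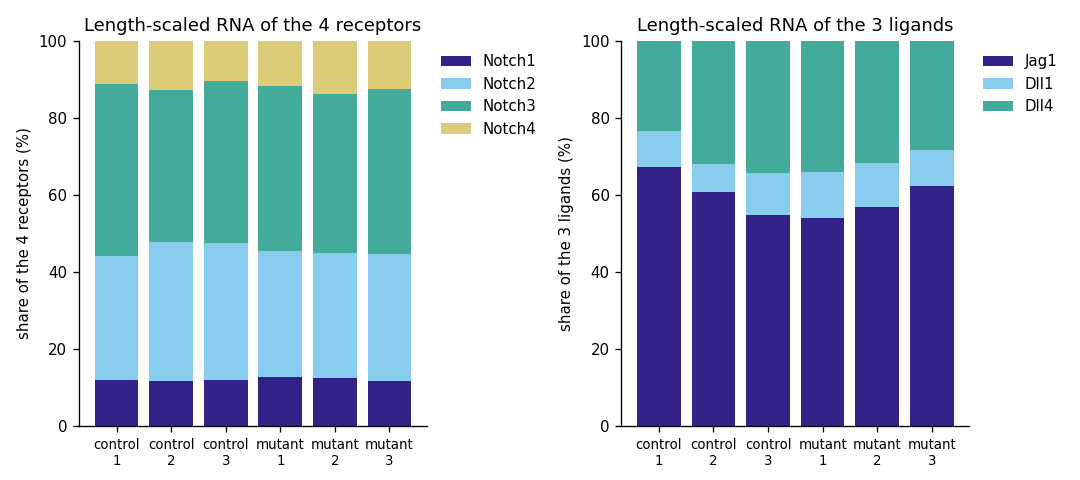
Share of each receptor in the length-scaled RNA of the 4 receptors (left) and of each ligand in that of the 3 ligands (right), in percent, for each control and mutant library. Notch3 and Notch2 take the larger part of the receptor RNA in each library, and Jag1 takes 54.0 to 67.3% of the ligand RNA.

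Jag1 had the highest length-scaled level among the ligands and Dll1 the lowest of the 10 genes. Jag1 (ENSMUSG00000027276, chromosome 2 from 137081456 to 137116644, reverse strand), the Jagged ligand most studied in skeletal cells, showed 79.6, 57.4 and 52.8 CPM across control libraries and 48.0, 59.1 and 69.7 CPM across mutant libraries. Its highest value was in control 1 and its lowest in mutant 1, and the libraries of each group were widely spread. By edgeR, the log2 difference was -0.10 ± 0.17 (standard error) at an adjusted p of 0.928, with a 95% interval from 0.717 to 1.21 times the control level. Without control 1 the log2 fold change was 0.10 and without mutant 1 it was 0.03, so that its direction rested on single libraries.
Dll4 (ENSMUSG00000027314, chromosome 2 from 119325784 to 119335962, forward strand), a ligand of endothelial cells, had control levels of 18.4, 19.9 and 21.9 CPM (replicates 1 to 3) and mutant levels of 19.96, 21.7 and 21.0 CPM. The mutants lay within the control range. Mutants differed from controls by 0.06 on the log2 scale (± 0.10, standard error, adjusted p = 0.927, edgeR), with a 95% interval from 0.894 to 1.21 times the control level. Relative to the endothelial sum, its log2 ratio ranged from -5.98 to -5.75 among controls and from -5.95 to -5.81 among mutants, a difference of -0.02 (exact permutation test, two-sided p = 0.9).
Dll1 (ENSMUSG00000014773, chromosome 17 from 15367354 to 15376872, reverse strand), a Delta-like ligand of progenitor tissues, was the scarcest member, with 155 to 220 counts per library. It was measured at 7.81, 5.06 and 7.62 CPM among control libraries and at 7.71, 8.61 and 7.55 CPM among mutant libraries. Control 2 was the low library and the remaining values overlapped. The edgeR fit estimated a log2 fold change of 0.22 (adjusted p = 0.810, standard error 0.18), with a wide 95% interval from 0.880 to 1.54 times the control level, and the log2 fold change was 0.05 without control 2.
Jag1 made up 54.8 to 67.3% of the length-scaled RNA of the 3 ligands in the controls and 54.0 to 62.3% in the mutants, Dll4 23.5 to 34.3% and 28.4 to 34.0%, and Dll1 7.39 to 10.9% and 9.31 to 11.99%. The 3 shares overlapped between the groups (exact permutation tests, two-sided p = 0.6, 0.9 and 0.2).

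Among the targets, Hes1 (ENSMUSG00000022528, chromosome 16 from 30064384 to 30067796, forward strand), a repressor switched on by Notch and by other signals, had control levels of 31.7, 30.5 and 36.7 CPM (33.0 ± 3.30, SD, n = 3) and mutant levels of 28.2, 27.7 and 27.5 CPM (27.8 ± 0.344, SD, n = 3). Each mutant library was below each control library, and the mutants were almost equal to each other. Fitted by edgeR, this was a log2 fold change of -0.25 ± 0.09 (standard error), or 0.843 times the control level with a 95% interval from 0.730 to 0.975. Its p was 0.0256 before and 0.501 after adjustment (edgeR), so that it did not pass the threshold. Leaving out control 3, the highest library, brought the log2 fold change to -0.16 (edgeR, adjusted p = 0.685), which is less than the full value by a factor of over 1.5. Control 3 was also the library with the lowest sum of chondrocyte markers (4018 CPM), and the part of this in the level of Hes1 was not tested. Leaving out mutant 3 gave -0.24 (edgeR, adjusted p = 0.698).
Levels of most tendon markers were also below those of the controls. The summed level of 5 of them was 2993 to 3288 CPM among controls and 2004 to 2341 CPM among mutants. The list was chosen with earlier results of these data known, so that its shares are not those of an unselected set. Of the 5, 4 lay below all controls in all 3 mutants, beside 7.58% of all genes tested. At an unadjusted p under 0.05 (edgeR) there were 4, all lower, beside 4.93% of all genes tested. Tnmd alone passed the adjusted threshold (log2 fold change -0.81, adjusted p = 0.0374, edgeR), beside 0.137% of all genes called lower. Thbs4 had a log2 fold change of 0.02. The part of tendon cells in the level of Hes1 was not tested.

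Hey1 (ENSMUSG00000040289, chromosome 3 from 8663359 to 8667256, reverse strand), a Hes-related repressor with a role in vessels and bone, showed 19.6, 15.2 and 15.6 CPM across control libraries and 18.7, 23.4 and 18.3 CPM across mutant libraries. Control 1 lay above mutants 1 and 3, so that the groups overlapped. By edgeR, the log2 difference was 0.26 ± 0.14 (standard error) at an adjusted p of 0.655, where the estimate was the highest of the 10 genes, with a 95% interval from 0.969 to 1.48 times the control level. The estimate was 0.14 without mutant 2 and 0.38 without control 1.
Heyl (ENSMUSG00000032744, chromosome 4 from 123233556 to 123249875, forward strand), a Notch target of mural cells and muscle, had control levels of 58.2, 33.1 and 42.6 CPM (replicates 1 to 3) and mutant levels of 42.1, 44.3 and 38.6 CPM. Its highest and lowest values were both in controls. Mutants differed from controls by -0.10 on the log2 scale (± 0.17, standard error, adjusted p = 0.931, edgeR), with a 95% interval from 0.714 to 1.22 times the control level, and the difference was 0.14 without control 1.
The 3 targets thus had log2 fold changes of -0.25, 0.26 and -0.10, without a common direction, and their differences from each other were not tested. Divided by the mural sum of the same library, Heyl had log2 ratios from -5.91 to -5.31 among controls and from -5.75 to -5.65 among mutants, a difference of -0.05 (exact permutation test, two-sided p = 1.0). For Notch3 these ratios were -3.97 to -3.68 and -3.89 to -3.64, a difference of 0.05 (p = 0.6, the same exact test). The muscle intermediate filament gene Des, which skeletal muscle also expresses, made up 28.5 to 44.7% of the mural sum. With Des left out of the sum, chosen after the data were seen, the difference was -0.12 for Heyl and -0.01 for Notch3 (exact permutation test, two-sided p = 0.5 and 1.0).

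**Figure D4:**
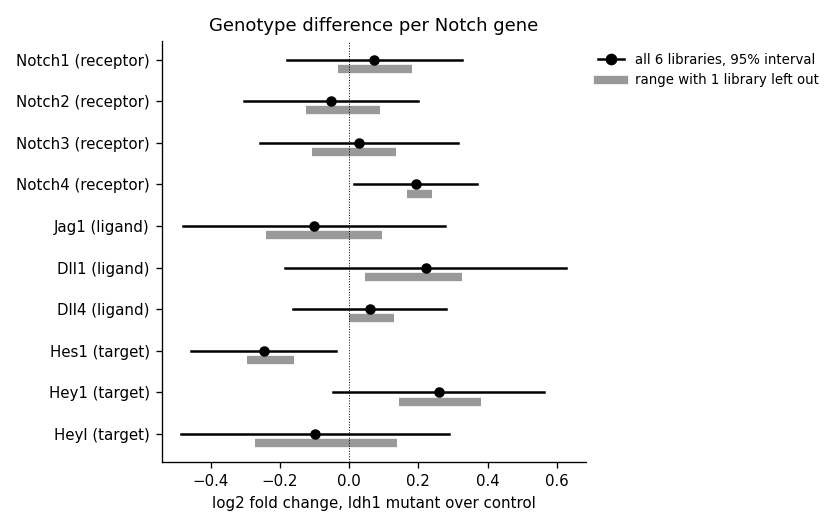
Log2 fold change of each Notch gene, Idh1 mutant over control, with its 95% interval from edgeR (black) and the range over the 6 fits that each left out 1 library (grey). The intervals of Notch4 and Hes1 do not reach 0 before adjustment for the number of genes tested, and the grey ranges of Notch1, Notch2, Notch3, Jag1, Dll4 and Heyl cross 0.

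The spread between libraries was larger in the controls. On the log2 scale all 10 members had a larger SD in the controls than in the mutants, as did 59.9% of all genes tested. The median SD of the members was 0.22 for controls and 0.10 for mutants, beside 0.16 and 0.13 over all genes. Control 2 was the lowest library for 7 of the 10 members (19.6% of all genes tested) and control 3 the highest for 5 (19.7%). Control 3 also had the lowest chondrocyte marker sum and the highest muscle and osteoblast marker sums, and a link to the members was not tested. The highest SDs were those of Heyl (0.41), Dll1 (0.35) and Jag1 (0.31) in the controls, and the lowest was that of Hes1 in the mutants (0.02). With 3 libraries a group, these SDs are themselves imprecise, and no test was made of them.

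Profiles over the 6 libraries were compared by the root mean square (RMS) difference of log2 CPM values, each gene centred on its own mean, over 14447 other genes with a mean of at least 1 CPM. The genes closest to Hes1 were Tub, Fzd7 and Igfbp5, at differences of 0.02 to 0.03, where the profile of Hes1 itself had an RMS of 0.15. Those closest to Notch4 were Cenpt, Noc4l and Hsd17b4 (0.02 each), those closest to Hey1 were Pigw, Vav2 and Zfp715 (0.06 to 0.07), and those closest to Dll1 were Aacs, Rinl and Ralgps1 (0.03 to 0.06). Furin, the protease that cuts Notch receptors on their way to the cell surface, was the closest of all to Notch2 at 0.02, a match picked out after its value was seen. Closeness over 6 libraries is a description and was not tested.

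A list of 54 other genes of the pathway was read from the same fit. Of these, 50 were tested, 0 had an adjusted p under 0.05 in either direction by edgeR, and DESeq2 and limma-voom also called 0. At an unadjusted p under 0.05 there were 2 of the 50, Rbpj and Dtx1, both lower, beside 8.64% of all genes tested in either direction and 4.93% lower. Of the 50, 20 had a log2 fold change above 0 and 30 below, where 50.7% of all genes tested were below, with a median of -0.03, and the groups did not overlap in 2 (Mib1 and Neurl1b, ubiquitin ligases that act on Notch ligands, both lower), beside 14.4% of all genes tested.
Rbpj (ENSMUSG00000039191, chromosome 5 from 53466152 to 53657362), which carries the Notch signal to DNA, was measured at 55.9, 46.3 and 68.6 CPM among control libraries and at 43.7, 45.1 and 47.9 CPM among mutant libraries. Control 2 lay below mutant 3, so that the groups overlapped. The edgeR fit gave a log2 fold change of -0.32 ± 0.13 (standard error) and an adjusted p of 0.524 (0.0332 unadjusted). Without control 3, its highest library and the lowest in chondrocyte markers, the log2 fold change of Rbpj was -0.16 (edgeR, adjusted p = 0.725). The 7 nuclear activators had log2 fold changes from -0.32 in Rbpj to -0.04 in Snw1, with a median of -0.14. All 7 were below 0, as were 50.7% of all genes tested, 0 of the 7 were called or separated between the groups, 1 had an unadjusted p under 0.05, and the group was not tested as such. Among them the 3 Mastermind genes Maml1, Maml2 and Maml3 had -0.16, -0.14 and -0.23.
Dtx1 (ENSMUSG00000029603, chromosome 5 from 120680202 to 120711927), a Deltex ubiquitin ligase, showed 4.44, 3.65 and 2.42 CPM across control libraries and 2.42, 1.71 and 2.65 CPM across mutant libraries. Mutant 3 was above control 3. The edgeR fit gave a log2 fold change of -0.63 ± 0.28 (standard error) and an adjusted p of 0.567 (0.0464 unadjusted).

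**Figure D5:**
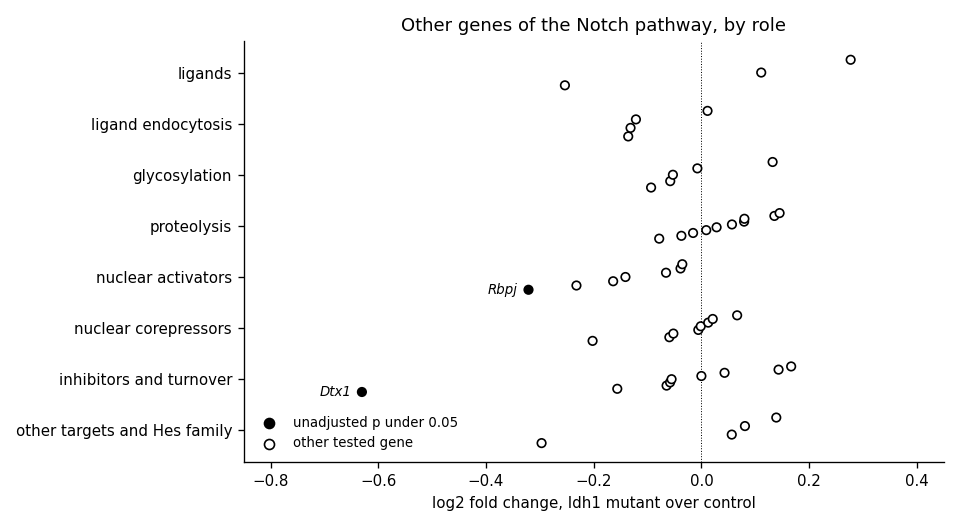
Log2 fold change, Idh1 mutant over control, of the 50 tested genes of the Notch pathway list by role, with genes at an unadjusted p under 0.05 filled. Only Rbpj (-0.32) and Dtx1 (-0.63) are filled, and 30 of the 50 genes lie to the left of 0.

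Of the other ligands, Jag2 had 28.5 to 37.9 CPM among controls and 29.3 to 39.7 CPM among mutants (log2 fold change 0.11, adjusted p = 0.891, edgeR), and Dll3 had 0 to 4 counts per library and was not tested. Dlk1, a Delta-like protein without the domain that activates the receptors, had 1992 to 2651 CPM among controls and 1903 to 2031 CPM among mutants (log2 fold change -0.25, adjusted p = 0.632, edgeR). Lfng, a glycosyltransferase that alters which ligands a receptor answers to, had 15.6 to 21.4 CPM and 19.6 to 20.4 CPM (log2 fold change 0.13, adjusted p = 0.835, edgeR), and its log2 fold change was 0.04 without control 2 and 0.27 without control 3. The median log2 fold change was 0.04 over the 10 genes of receptor cleavage, -0.05 over the 5 of glycosylation, -0.13 over the 4 of ligand endocytosis, 0.00 (-0.0036) over the 8 corepressors and -0.06 over the 9 genes of inhibition and turnover. Among further targets and Hes family genes, Hes2, Hes3 and Hes5 had at most 4 counts in any library and were not tested. Nrarp, a feedback inhibitor switched on by Notch, had 9.07 to 10.6 CPM among controls and 9.30 to 10.6 CPM among mutants (log2 fold change 0.06, adjusted p = 0.950, edgeR). Hey2 had 1.26 to 5.86 CPM in the controls, with the highest value in control 1, where Heyl and Hey1 had their highest control values too. Hey2 was 1 of 4 tested genes of this list. Of the 4, 0 had an unadjusted p under 0.05 (edgeR), beside 8.64% of all genes tested, and the groups overlapped in each.

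Libraries were made with a kit that marks strand, but reads were counted without regard to it, and reads in exon stretches shared by several genes were left out. Jag1, Hes1, Hey1 and Heyl overlapped no other listed gene, and Notch4 shared 0 exon bases with its overlapping gene Gm20462. Notch1 shared 1068 exon bases with 0610009E02Rik, Dll1 867 with A930024N18Rik, Notch2 541 with RP23-3C4.2, Notch3 488 with Gm17276 and Dll4 214 with Gm14207, so that the counts of these 5 genes leave out part of their exons. The partner of Notch2 lies on the same strand, and those of the other 4 genes are antisense, where reads of both strands cannot be told apart. These 5 partners had 57 to 345 counts in all over the 6 libraries.
Further marker lists, also chosen with earlier results of these data known, were read from the same fit. Of 5 markers of hypertrophic chondrocytes 0 were called, with summed levels of 273 (control 3) to 1373 CPM among controls and 1205 to 1762 CPM among mutants. Their log2 fold changes ranged from -0.32 to 1.32, 2 above 0 and 3 below. At an unadjusted p under 0.05 (edgeR) 1 was higher and 0 lower, beside 3.71% and 4.93% of all genes tested. Among 6 keratinocyte markers 4 were tested. Of these, 1, Krt5, was lower in the mutants at an adjusted p under 0.05 (edgeR), beside 0.137% of all genes called lower. The summed levels were 10.2 to 20.3 CPM among controls and 9.34 to 10.04 CPM among mutants, so that the sums did not overlap. The 6 leukocyte and erythroid markers gave 0 calls and summed to 462 to 1137 CPM among controls and 294 to 403 CPM among mutants, so that the sums did not overlap. Of the 6, 3 were separated as lower and 1 as higher in the mutants, beside 7.58% and 6.85% of all genes tested. At an unadjusted p under 0.05 (edgeR) there were 2 in each direction, beside 8.64% of all genes in either. None of the 10 skeletal muscle, 10 mural, 10 chondrocyte and 7 osteoblast markers passed the adjusted threshold (edgeR). All 7 osteoblast markers had a log2 fold change above 0 (median 0.44), where 50.7% of all genes tested were below 0. Their log2 fold changes ranged from 0.01 to 1.75. Of these 7, 1 lay above all controls in all 3 mutants, beside 6.85% of all genes tested. At an unadjusted p under 0.05 (edgeR) 1 was higher, beside 3.71% of all genes tested. The part of the tissues in these lists in the levels of the Notch genes was not tested.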

How the data were processed

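Growth plate RNA of 6 libraries was captured with oligo-dT beads and sequenced. The authors trimmed the reads with Trim Galore 0.6.4, mapped them to GRCm38 with STAR 2.6.1d and counted them on exons with featureCounts 1.6.4, and the deposited values are raw counts per gene, without normalization. No per-sample column was left unused (0).

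Genes were filtered with filterByExpr of edgeR 4.0.16 (R 4.3.3), at a minimum count of 10 and a minimum total of 15, which left 16813 genes. After TMM scaling, genotype was tested by quasi-likelihood in edgeR, and p-values were adjusted after Benjamini and Hochberg. The study's design had a litter term, which the labels do not give. Standard errors and 95% intervals were derived from the F statistic. CPM were scaled to the counts of the tested genes. Shares and ratios were compared with exact two-sided permutation tests (scipy 1.17.1). The alternatives were DESeq2 1.42.0, limma-voom (limma 3.58.1), the replicate number as a block, upper-quartile factors, 2 other filters, and each library left out in turn. Other scalings for the separation of the groups and a mural sum without Des were added with the values in view. The scripts were tested on simulated counts.

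The members and lists were chosen with earlier results of these data known. Named were all members, pathway genes with an unadjusted p under 0.05, Rbpj, Jag2 and Lfng, genes at the floor, and the 3 closest profiles of the 4 members with the lowest p. Dlk1, Nrarp, Hey2, Maml1 to Maml3, Snw1, Mib1, Neurl1b, Furin, Des and single markers were named after their values were seen. Lect1 is the files' symbol for the marker Cnmd. Of 2 listed genes named Dlk1, the one with counts was used.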

Additional observations from a re-analysis of the deposited data

How the results depend on the processing

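With an adjusted p under 0.05 as the threshold, 0 of the 10 Notch genes and 0 of the other pathway genes were called under each of the 7 other settings and in each fit that left out 1 library, and the 98 log2 fold changes of named genes under other settings kept their direction. The number of Notch genes at an unadjusted p under 0.05 was 2, and it was 1 with DESeq2, 1 with edgeR and the replicate block, 0 with DESeq2 and the replicate block, 1 without the low-count filter and 0 to 2 with 1 library left out. For the other pathway genes it was 2, and it was 1 with edgeR and the block, 1 with DESeq2 and the block, 1 with limma-voom, 1 with upper-quartile factors, 3 with DESeq2, 3 without the low-count filter and 0 to 5 with 1 library left out. The same numbers in both groups mark no stated pairing, and the deviations of same-numbered libraries correlated at -0.13, 0.01 and -0.10. With 1 library left out, the direction turned in 9 of 84 log2 fold changes. The ranges (Notch1 being -0.0332 without control 2 and Notch2 0.0896 without control 3) were -0.03 to 0.18 in Notch1, -0.13 to 0.09 in Notch2, -0.11 to 0.13 in Notch3, -0.24 to 0.10 in Jag1, -0.0015 to 0.13 in Dll4, -0.27 to 0.14 in Heyl and -0.0027 to 0.26 in Jag2. Hes1 stayed between -0.30 and -0.16 and Notch4 between 0.17 and 0.24, with adjusted p over all alternatives from 0.464 to 0.9998 and from 0.506 to 0.9998. Shares and ratios moved by less than the larger of the control and mutant SDs, but with 1 library left out their direction turned in 9 of 66 cases, among them the Notch3 share (-1.18 points without control 2), the Dll4 share (-1.76 points without control 1), the ratios of Heyl (0.12 without control 1) and Notch3 (-0.03 without control 2) to the mural sum and that of Dll4 to the endothelial sum (0.04 without control 3). Pairing by number cannot move these differences, and its exact sign-flip p cannot go below 0.25, the value it gave for the Notch4 share and the Notch3 ratio. Rbpj ranged from -0.45 to -0.16, Dtx1 from -0.83 to -0.43 and Lfng from 0.04 to 0.27. For none of these changes was a cause tested. At 3 libraries a group, the intervals leave room for differences such as 0.880 to 1.54 times the control level in Dll1.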
